A study of Mus musculus with 18 samples.

Results

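Perforin, the granzymes encoded outside chromosome 14 and the proteins that pack, activate or restrain them were followed as 10 genes in mouse natural killer (NK) cells with and without ATP-citrate lyase. The genes were chosen by symbol in the count table: Prf1, Gzma, Gzmk, Gzmm, Srgn, Ctsc, Serpinb9, Serpinb9b, Serpinb6b and Lamp1. They are 10 of 55487 gene identifiers in the table, each symbol gave 1 identifier, and all 10 were among the 14864 genes tested. No measured value entered the choice by symbol, but results of these data were known when the genes were proposed.

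RNA was sequenced from YFP-positive NK cells sorted from the spleens of tamoxifen-fed mice, in 18 libraries. The knock-out mice carried Acly fl/fl together with Rosa YFP/YFP and Ncr1 CRE-ERT2, and the wild-type mice carried Rosa YFP/YFP and Ncr1 CRE-ERT2 without it, so that both genotypes carried the reporter, the inducible Cre and 48 hours of tamoxifen diet. Acly encodes ATP-citrate lyase, an enzyme that splits citrate into acetyl-CoA and oxaloacetate outside mitochondria, and Ncr1 drives the Cre in NK cells and other cells that express this receptor gene. The cells were sorted 5 days after the diet ended. They were read fresh, after 72 hours of priming in IL-15 (100 ng/ml), or after the same priming, a wash and 6 hours on plate-bound NKG2D reagent at 20 ug/ml, with 3 libraries per genotype in each condition. No group was cultured without IL-15, and none was washed and plated without the NKG2D reagent. Priming here therefore means IL-15 together with 72 hours of culture. NKG2D stimulation means the reagent together with the wash and 6 more hours, and these parts cannot be told apart. The labels do not give age or sex of the mice, nor whether each replicate is an animal of its own. The p-values therefore speak only to the variation among libraries.

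Library totals ran between 14772350 and 34367582 reads. CPM are a gene's reads scaled to a common library size, with TMM factors. Acly, the deleted gene, was at 15.3 to 25.5 CPM in fresh knock-out libraries, against 232 to 265 CPM in fresh wild-type libraries. It was lower in every knock-out library in the other conditions too. It was at 7.6% of the wild-type level when fresh, 16.7% when primed and 22.2% after NKG2D. At priming Acly rose in knock-out cells (log2 fold change 1.17, adjusted p = 9.37e-05 by edgeR's quasi-likelihood test), and the wild-type change was 0.03. From primed to NKG2D cells the change was -0.24 in knock-out and -0.64 in wild type. The part of this remaining Acly RNA in the cultured comparisons was not tested. Primed knock-out replicate 1 was the smallest library, with 14695 genes detected against at least 17877 in any other. The summed level of 9 NK-cell marker genes was 14129 to 15752 CPM in fresh knock-out and 12381 to 13848 CPM in fresh wild-type cells, 7213 to 8675 CPM in primed knock-out and 6308 to 7765 CPM in primed wild-type cells, and 4549 to 5074 CPM in NKG2D-stimulated knock-out and 4598 to 5193 CPM in NKG2D-stimulated wild-type cells. Of these 9 markers, 3 were higher and 2 lower in primed knock-out cells, and 2 higher and 3 lower after NKG2D. Xist was above 10 CPM in 6 libraries, which were knock-out replicate 2 and, among wild types, replicate 1 of each condition, which is a female pattern. In bulk RNA, fewer cells of a type and less RNA per cell cannot be told apart.

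Cytotoxic lymphocytes kill by releasing preformed granules onto a target cell. Perforin makes pores in the target membrane, and granzymes, a family of serine proteases, pass through and cleave proteins inside. In the granule the granzymes are held on serglycin, a proteoglycan core protein, and are activated by cathepsin C, which removes an N-terminal dipeptide. The killer cell carries serpins in its cytosol, which trap granzymes that leak, and Lamp1 is an abundant glycoprotein of the granule and lysosome membrane that appears on the cell surface when granules are released.

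The promoters of Prf1, Gzmm, Gzmk, Serpinb9 and Serpinb9b are shown because these genes include the largest genotype differences described below, in both directions, and a pair of related serpins. Each is the window 250 bases before to 50 bases after a RefSeq transcript start (GRCm38.p6), read 5′ to 3′ on the gene's strand, and capitals mark every match to a motif or to its reverse complement. These were STAT (TTCNNNGAA), T-box (GGTGTGA), RUNX (TGTGGT), ETS (CGGAAG), KLF (GGGCGTG or GGGTGTG) and AP-1 (TGANTCA). Prf1 is at chr10:61297586-61297885 on the plus strand, Gzmm at chr10:79688770-79689069 on the plus strand, Gzmk at chr13:113180916-113181215 on the minus strand, Serpinb9 at chr13:33004291-33004590 on the plus strand and Serpinb9b at chr13:33027164-33027463 on the plus strand.
Prf1: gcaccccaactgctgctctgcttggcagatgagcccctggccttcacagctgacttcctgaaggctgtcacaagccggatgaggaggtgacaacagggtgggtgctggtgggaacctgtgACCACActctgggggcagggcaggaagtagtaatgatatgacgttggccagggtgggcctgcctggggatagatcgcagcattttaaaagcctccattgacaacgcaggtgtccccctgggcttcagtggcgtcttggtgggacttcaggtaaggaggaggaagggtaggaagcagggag
Gzmm: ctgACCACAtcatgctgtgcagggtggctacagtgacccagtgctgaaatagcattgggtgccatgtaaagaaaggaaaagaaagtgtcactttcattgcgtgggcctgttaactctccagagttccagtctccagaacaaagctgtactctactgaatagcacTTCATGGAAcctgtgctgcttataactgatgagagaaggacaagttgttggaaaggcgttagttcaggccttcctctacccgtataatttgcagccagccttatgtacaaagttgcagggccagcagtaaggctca
Gzmk: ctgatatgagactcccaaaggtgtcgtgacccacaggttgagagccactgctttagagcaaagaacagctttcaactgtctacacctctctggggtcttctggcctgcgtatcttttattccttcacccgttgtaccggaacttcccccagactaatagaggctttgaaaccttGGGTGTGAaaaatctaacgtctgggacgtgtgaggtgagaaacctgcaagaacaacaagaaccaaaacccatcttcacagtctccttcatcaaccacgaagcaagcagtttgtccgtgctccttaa
Serpinb9: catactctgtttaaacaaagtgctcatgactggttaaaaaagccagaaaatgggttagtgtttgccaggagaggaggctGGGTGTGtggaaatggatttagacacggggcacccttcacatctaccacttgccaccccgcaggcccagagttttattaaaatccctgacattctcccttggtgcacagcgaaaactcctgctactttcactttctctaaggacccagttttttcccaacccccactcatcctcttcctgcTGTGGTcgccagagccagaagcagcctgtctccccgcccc
Serpinb9b: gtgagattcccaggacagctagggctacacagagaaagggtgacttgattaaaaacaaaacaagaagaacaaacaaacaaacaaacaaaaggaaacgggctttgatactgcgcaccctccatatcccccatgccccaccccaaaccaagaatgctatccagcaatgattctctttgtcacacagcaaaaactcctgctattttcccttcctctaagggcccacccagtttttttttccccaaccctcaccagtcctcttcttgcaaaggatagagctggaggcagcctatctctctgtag

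Prf1 held 1 RUNX match, whose first base lies 130 bases before the start. The Gzmm window held a RUNX match at -247 and a STAT match at -86. In Gzmk a KLF match at -76 and a T-box match at -75 overlap in the run GGGTGTGA, and the second Gzmm window in the table, not printed, held the same overlapping run at -190 and -189. Serpinb9 held a KLF match at -171 and a RUNX match at 11, and Serpinb9b held none of the 6 motifs. Over the 10 genes, all of which had a window, 6 held RUNX, 5 KLF, 3 T-box, 2 STAT, 1 ETS and 0 AP-1. Of all 32851 promoter windows in the table, 16.8% held RUNX, 15.5% KLF, 3.98% T-box, 8.3% STAT, 16.9% ETS and 7.81% AP-1. The first figures count genes with a match in any window, and the second count windows. Gzmm and Srgn had more than 1 window and so more chances of a match. A match is a run of letters and not a measured binding site. The windows of Serpinb9 and Serpinb9b were identical at 57.8% of aligned positions, against 43.0% for Serpinb6b with Serpinb9 and 40.0% for Serpinb6b with Serpinb9b.

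Per kilobase of merged exon, Gzma was far above the other 9 genes in every group, at 9762 ± 1404 CPM per kb in fresh knock-out and 9136 ± 466 CPM per kb in fresh wild-type cells (SD, n = 3 each). Prf1 followed in fresh cells with 1107 ± 193 CPM per kb in knock-out and 1046 ± 106 CPM per kb in wild type. Serglycin and Serpinb6b came next in fresh cells, then Serpinb9, then Serpinb9b with Ctsc, whose ranges overlapped. Gzmm, Lamp1 and Gzmk were at 8.66 to 20.3 CPM per kb on average in fresh knock-out cells and at 6.61 to 11.7 CPM per kb in fresh wild-type cells. The order was not fixed: after NKG2D, Srgn was above Prf1 in both genotypes, at 388 ± 27.7 against 113 ± 28.8 CPM per kb in knock-out cells and 614 ± 36.2 against 354 ± 91.0 CPM per kb in wild-type cells.

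All 10 genes together took 1.40 ± 0.187% of counted reads in fresh knock-out and 1.39 ± 0.0376% in fresh wild-type cells. They took 1.22 ± 0.153% in primed knock-out and 1.55 ± 0.167% in primed wild-type cells, where the ranges touched at 1.37%. After NKG2D they took 0.591 ± 0.072% in knock-out and 0.95 ± 0.0832% in wild-type cells, and every knock-out library was below every wild-type library. Gzma alone made up most of these reads.

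**Figure D1:**
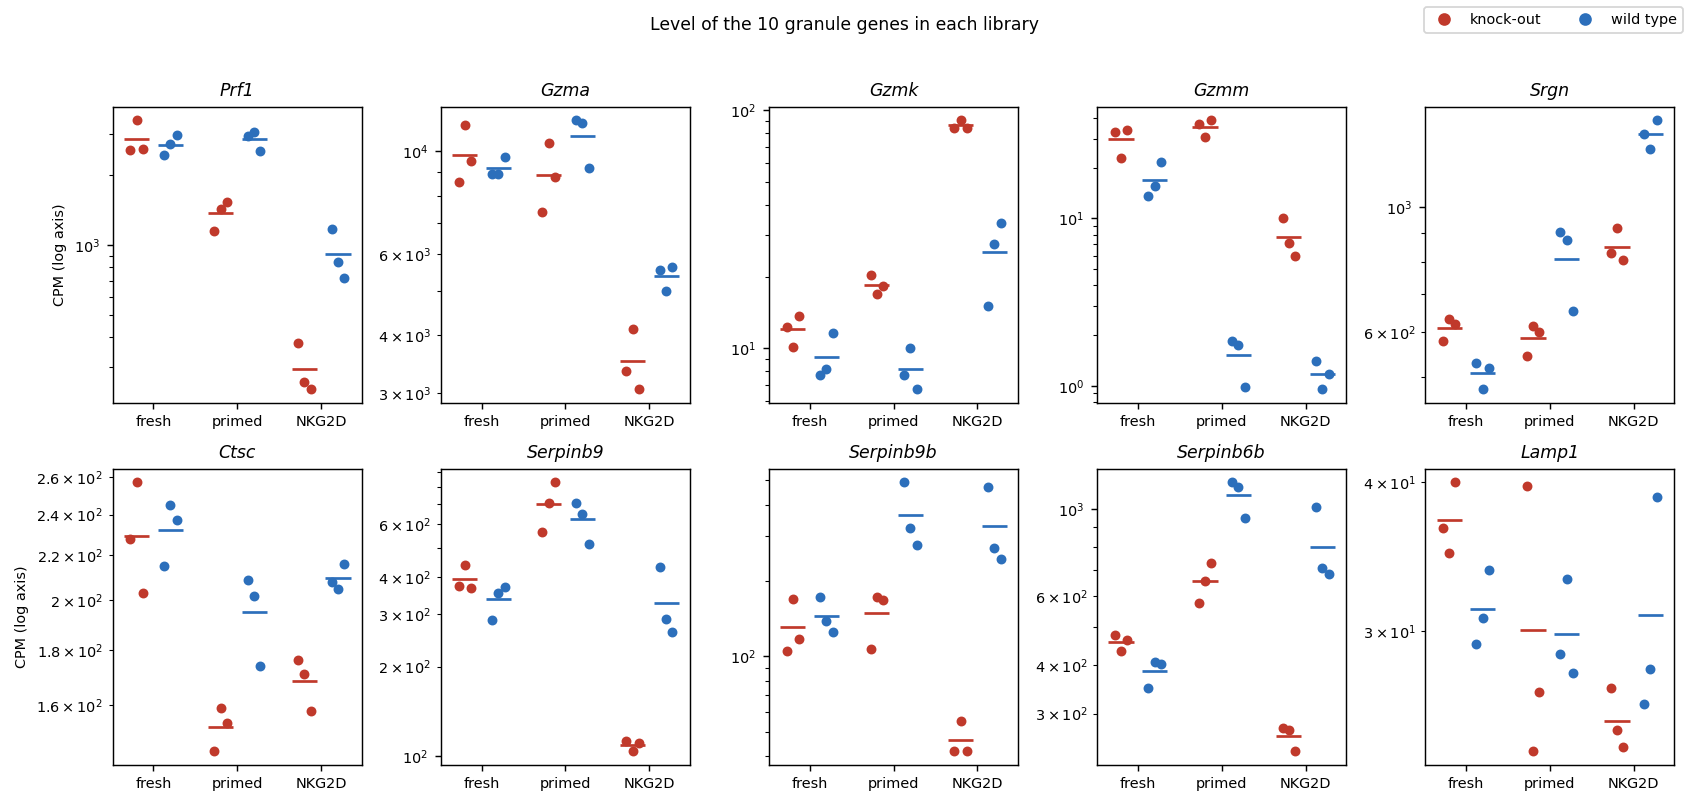
Level of each of the 10 genes in every library, in CPM on a log axis, for fresh, primed and NKG2D-stimulated cells. Points are libraries (red knock-out, blue wild type) and bars are means of 3. The wild-type bar of Gzmm is at 1.52 CPM when primed beside 35.3 CPM in knock-out, and Serpinb9, Serpinb9b, Serpinb6b and Prf1 have their lowest points in NKG2D-stimulated knock-out cells.

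The number of these genes that passed between genotypes was 0 before culture, 7 after priming and 9 after NKG2D. In fresh knock-out against fresh wild-type cells, 0 of the 10 genes passed an adjusted p of 0.05 (edgeR quasi-likelihood test), where 10 of all 14864 genes (0.0673%) did, 0.0135% higher and 0.0538% lower, and 2 of the 10 had an unadjusted p under 0.05. Of all 14864 genes, 1903 had an unadjusted p under 0.05. Limma with voom called 2 of the 10 and 1900 of all genes, and DESeq2 called 0 of the 10 and 137 of all genes. The summed level of red-cell and platelet markers was 25.3 to 26.5 CPM in fresh knock-out and 121 to 210.4 CPM in fresh wild-type cells, with 4 of 7 tested markers lower in knock-out, and its part in the fresh comparison was not tested. In primed cells 7 of the 10 differed, with Gzmm and Gzmk higher in knock-out and Prf1, Serpinb9b, Serpinb6b, Srgn and Ctsc lower, where 15.5% of all genes were called, 7% higher and 8.52% lower. After NKG2D 9 of the 10 differed, with Gzmm and Gzmk again higher and the other 7, now with Gzma and Serpinb9 among them, lower, where 18.2% of all genes were called, 8.75% higher and 9.47% lower. The median log2 fold change of the 10 genes was 0.23 fresh, -0.32 when primed and -0.64 after NKG2D, beside 0.01, -0.02 and 0.03 over all genes tested. After NKG2D the sum of 11 myeloid markers was 295 to 372 CPM in knock-out and 205 to 214 CPM in wild-type cells, with 2 of 7 tested markers higher and 2 lower. Lyz2, S100a8, S100a9, Mpo and Elane were at 0 in both genotypes there, and the part of such cells in the NKG2D comparison was not tested.

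**Figure D2:**
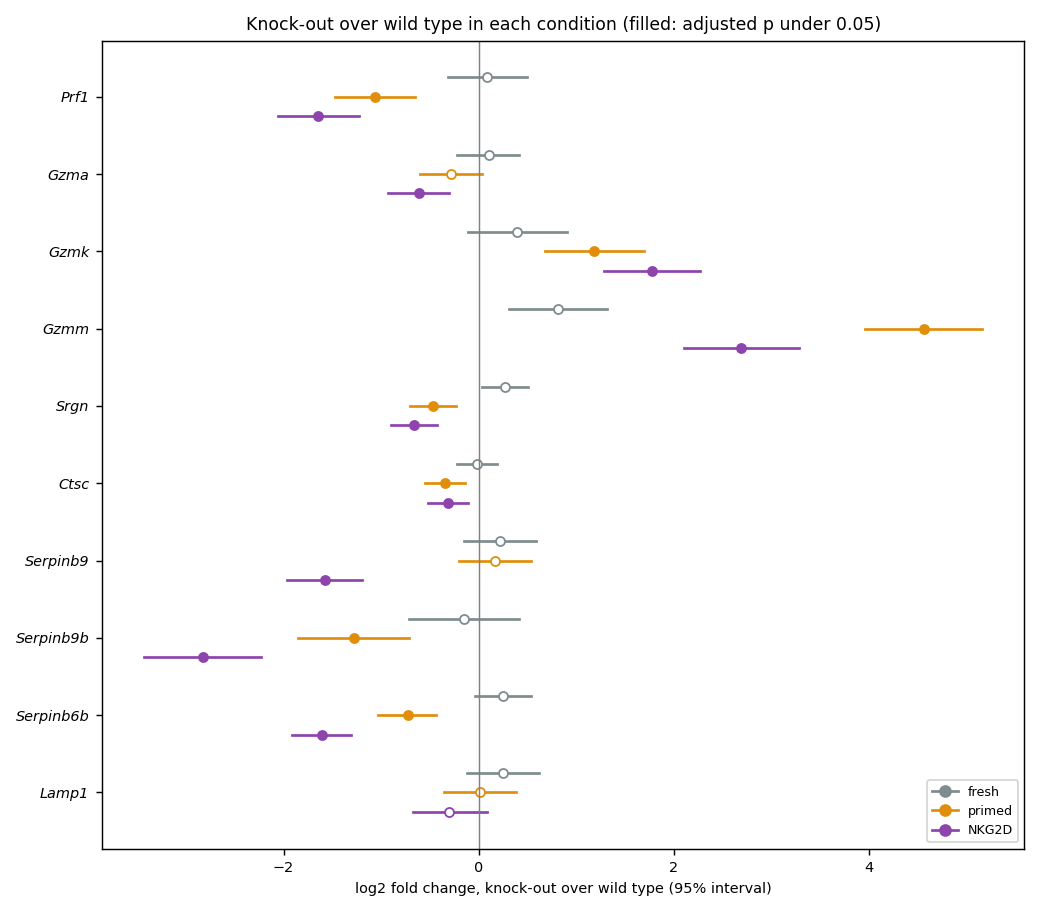
Log2 fold change of each gene in knock-out over wild-type cells, with its 95% interval, in fresh, primed and NKG2D-stimulated cells. Filled points passed an adjusted p of 0.05. Prf1, Serpinb9b and Serpinb6b lie further to the left in each later condition, and Gzmm lies furthest to the right in primed cells at 4.56.

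Prf1, the perforin gene (chr10:61297833-61304680, plus strand, mm10), was at 2553, 3438 and 2593 CPM in fresh knock-out libraries, against 2425, 2708 and 2975 CPM in fresh wild-type libraries. In primed cells it was at 1146, 1432 and 1533 CPM in knock-out, against 2953, 3069.6 and 2541 CPM in wild type. After NKG2D it was at 377, 258 and 239.9 CPM in knock-out, against 1176, 843 and 722 CPM in wild type. The fresh groups overlapped, and in both cultured conditions every knock-out library was below every wild-type library. Groups without overlap were found for 31.6% of all genes when primed and 34.8% after NKG2D. The log2 fold change of knock-out over wild type was -1.06 in primed cells (SE 0.194, adjusted p = 0.0014) and -1.65 after NKG2D (SE 0.197, adjusted p = 3.26e-05). That is 48.0% and 31.9% of the wild-type level.

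Prf1 fell at priming in knock-out cells (log2 fold change -1.06, SE 0.194, adjusted p = 0.000219), while the wild-type change was 0.08 (SE 0.192, adjusted p = 0.752). The response to priming differed between genotypes by -1.14, knock-out minus wild type (SE 0.272, adjusted p = 0.0131). NKG2D stimulation lowered Prf1 relative to primed cells in both genotypes, with -2.23 in knock-out (SE 0.201, adjusted p = 2.16e-07) and -1.64 in wild type (SE 0.197, adjusted p = 1.29e-05). The difference of those responses was -0.59 (SE 0.271, adjusted p = 0.259, 95% interval -1.16 to -0.02) and did not pass. Without a filter on low counts it was -0.63 with an adjusted p of 0.0184, and by limma with voom -0.75 with 0.013.

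Gzmm encodes granzyme M, which cleaves after methionine and leucine (chr10:79689020-79695261, plus strand), and had the largest genotype difference of the 10 genes. In fresh cells it was at 32.9, 23.0 and 33.6 CPM in knock-out, against 13.6, 15.7 and 21.8 CPM in wild type. When primed, it was at 36.5, 30.7 and 38.7 CPM in knock-out, against 1.84, 1.75 and 0.983 CPM in wild type, where 32 to 39 reads per library were counted. After NKG2D it was at 10, 7.11 and 5.99 CPM in knock-out, against 1.40, 0.954 and 1.17 CPM in wild type. Knock-out and wild-type libraries did not overlap in any condition, and groups did not overlap for 27.0% of all genes when fresh, 31.6% when primed and 34.8% after NKG2D.

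The primed difference of Gzmm was 4.56 (SE 0.285, adjusted p = 3.67e-08), a 23.6-fold higher level in knock-out cells and the rank 4 of all genes by p. After NKG2D it was 2.69 (SE 0.278, adjusted p = 8.06e-06), or 6.45-fold. In fresh cells it was 0.81 (SE 0.236) with an unadjusted p of 0.00309 and an adjusted p of 0.207. That fresh difference passed by limma with voom (adjusted p = 0.00425), without a filter (0.00847) and with the fresh libraries alone (0.0407), settings that called 1900, 564 and 780 of all genes tested.

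Gzmm fell at priming in wild-type cells and at NKG2D in knock-out cells. Priming lowered Gzmm in wild-type cells (-3.51, SE 0.278, adjusted p = 1.23e-08), to 8.79% of the fresh level, while the knock-out change was 0.24 (SE 0.233, adjusted p = 0.41). The difference of the priming responses was 3.75 (SE 0.360, adjusted p = 1.31e-05). NKG2D stimulation lowered Gzmm in knock-out cells (-2.19, SE 0.247, adjusted p = 2.74e-06), and the wild-type change, between levels near 1 CPM, was -0.32 (SE 0.300, adjusted p = 0.503). That difference of responses was -1.87 (SE 0.386, adjusted p = 0.0126), but without NKG2D wild-type replicate 1 it was -1.71 with an adjusted p of 0.0586.

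Gzmk, granzyme K, a protease of trypsin-like specificity (chr13:113171608-113225908, minus strand), was the other gene above wild type in knock-out cells, and it moved in the opposite direction to Gzmm at NKG2D. In primed cells it was at 20.2, 16.9 and 18.2 CPM in knock-out, against 7.74, 9.98 and 6.73 CPM in wild type. After NKG2D it was at 84.5, 90.7 and 84.4 CPM in knock-out, against 15, 27.4 and 33.6 CPM in wild type. In fresh cells the groups overlapped at 10.1 to 13.7 CPM in knock-out and 7.74 to 11.6 CPM in wild type. The knock-out was higher by 1.18 in primed cells (SE 0.240, adjusted p = 0.00303) and by 1.77 after NKG2D (SE 0.235, adjusted p = 7.94e-05).

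NKG2D stimulation raised Gzmk in both genotypes, by 2.23 in knock-out (SE 0.240, adjusted p = 1.67e-06) and by 1.64 in wild type (SE 0.241, adjusted p = 9.62e-05), and the difference of these responses was 0.59 (SE 0.331, adjusted p = 0.364). Priming raised it in knock-out cells by 0.61 (SE 0.235, adjusted p = 0.0403), a call lost on leaving out any 1 of 5 of the 6 knock-out libraries, with adjusted p up to 0.115. Esm1 lies within the gene's span on the opposite strand and reached at most 0.469 CPM. Gzmk is also a gene of T cells: the summed T-cell marker level was 329 to 431 CPM in NKG2D-stimulated knock-out and 502 to 555 CPM in NKG2D-stimulated wild-type cells. Cd8a and Cd8b1 were at 0 in all 3 libraries of both genotypes there, and Cd4 was at 0 in all 3 knock-out libraries. Of 8 tested T-cell markers, 3 were lower and 0 higher in knock-out. The sum of 7 marker genes of type 1 innate lymphoid cells was 380.1 to 428 CPM in knock-out and 290.2 to 487 CPM in wild type after NKG2D. The part of other cells in the Gzmk difference was not tested.

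Gzma, granzyme A, a trypsin-like granzyme and the most abundant of the 10 (chr13:113093825-113100981, minus strand), was at 3355, 4128 and 3064 CPM in NKG2D-stimulated knock-out libraries, against 5530, 4983 and 5616 CPM in NKG2D-stimulated wild-type libraries. The groups did not overlap after NKG2D, as for 34.8% of all genes, and the log2 fold change was -0.61 (SE 0.150, adjusted p = 0.0089). In primed cells the ranges of 7389 to 10387 CPM in knock-out and 9196 to 11656 CPM in wild type overlapped, with a difference of -0.28 (adjusted p = 0.212). In fresh cells 8595 to 11366 CPM in knock-out and 8906 to 9732 CPM in wild type gave 0.10 (adjusted p = 0.848). NKG2D lowered Gzma in both genotypes, with -1.33 in knock-out (SE 0.152, adjusted p = 3.24e-06) and -1 in wild type (SE 0.151, adjusted p = 0.000121), and the difference of responses was -0.33 (adjusted p = 0.438).

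Srgn, the serglycin gene (chr10:62493833-62527451, minus strand), was one of 2 genes that NKG2D stimulation raised, the other being Gzmk. When primed, it was at 544, 614 and 601 CPM in knock-out, against 903, 874 and 654 CPM in wild type, and after NKG2D at 828, 919.9 and 805 CPM in knock-out, against 1350.1, 1269 and 1428 CPM in wild type. No knock-out library reached a wild-type library in either condition. Such a lack of overlap was seen for 31.6% of all genes when primed, 34.8% after NKG2D and 27% when fresh. The log2 fold change was -0.47 in primed cells (SE 0.111, adjusted p = 0.00896) and -0.66 after NKG2D (SE 0.112, adjusted p = 0.000598). The primed call was lost without primed wild-type replicate 1 (adjusted p = 0.068) or replicate 2 (0.0604), and in a fit of the primed libraries alone (0.0793). In fresh cells the order was turned, at 579 to 634 CPM in knock-out and 475 to 528 CPM in wild type, a difference of 0.27 with an unadjusted p of 0.0272 and an adjusted p of 0.325.

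Priming raised Srgn in wild-type cells by 0.68 (SE 0.112, adjusted p = 6.59e-05), and the knock-out change was -0.06 (SE 0.111, adjusted p = 0.691). These responses differed by -0.73 (SE 0.157, adjusted p = 0.00739). NKG2D raised it by 0.54 in knock-out (SE 0.111, adjusted p = 0.00115) and by 0.74 in wild type (SE 0.112, adjusted p = 0.00013), with a difference of -0.20 (adjusted p = 0.552).

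Ctsc, cathepsin C, the granzyme-activating protease (chr7:88278085-88310888, plus strand), varied least of the called genes. In primed cells it was at 145, 159 and 154 CPM in knock-out, against 209, 202 and 174 CPM in wild type, and after NKG2D at 176, 171 and 158 CPM in knock-out, against 208, 205 and 216 CPM in wild type. The groups did not overlap in either condition, as for 31.6% of all genes when primed and 34.8% after NKG2D. The differences were -0.35 in primed cells (SE 0.0973, adjusted p = 0.0219) and -0.32 after NKG2D (SE 0.0972, adjusted p = 0.0312). Both calls were lost without a filter on low counts (adjusted p = 0.128 and 0.117) and in fits of each condition's libraries alone (0.0741 and 0.079). Leaving out single libraries gave adjusted p up to 0.117 in primed and 0.113 in NKG2D-stimulated cells. Priming lowered Ctsc in knock-out cells (-0.58, SE 0.0975, adjusted p = 9.47e-05) and in wild-type cells (-0.25, SE 0.0971, adjusted p = 0.0372), the second of which was lost without any 1 of the 3 primed or of 2 fresh wild-type libraries, and the difference was -0.33 (adjusted p = 0.134). In fresh cells its ranges of 203 to 257 CPM in knock-out and 215 to 245 CPM in wild type overlapped.

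The 3 serpins lie side by side on chromosome 13, Serpinb6b at chr13:32965209-32979067, Serpinb9 at chr13:33003250-33017957 and Serpinb9b at chr13:33027416-33041884, all on the plus strand. Serpinb6b inhibits granzyme A in the mouse, Serpinb9 inhibits granzyme B, and Serpinb9b inhibits mouse granzyme M. They shared few 50-letter words with other transcripts, 2.92% for Serpinb6b, 0.478% for Serpinb9b and 0.378% for Serpinb9. How the counting treated reads of relatives is not stated. All 3 were lower in knock-out than in wild-type cells after NKG2D, and they parted at priming.

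Serpinb9b was at 105, 169 and 117 CPM in fresh knock-out libraries, against 172, 138 and 125 CPM in fresh wild-type libraries. When primed, it was at 107, 172 and 168 CPM in knock-out, against 491, 323 and 276 CPM in wild type. After NKG2D it was at 41.9, 55.2 and 41.9 CPM in knock-out, against 472, 269 and 244 CPM in wild type. The fresh groups overlapped and the others did not, as for 31.6% of all genes when primed and 34.8% after NKG2D. In all 3 conditions the highest library of each genotype was the one with the Xist pattern. The log2 fold change was -1.28 in primed cells (SE 0.269, adjusted p = 0.00378) and -2.83 after NKG2D (SE 0.285, adjusted p = 6.32e-06), to 14.1% of the wild-type level.

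Priming raised Serpinb9b in wild-type cells by 1.33 (SE 0.270, adjusted p = 0.000491), or 2.51-fold, and the knock-out change was 0.20 (SE 0.266, adjusted p = 0.566). The difference of responses was -1.13 (SE 0.377, adjusted p = 0.0624). It passed with the Xist pattern as a covariate at -1.08 (adjusted p = 0.00513) and by DESeq2 at -1.12 (0.0265). NKG2D lowered Serpinb9b in knock-out cells (-1.69, SE 0.274, adjusted p = 0.000129), and the wild-type change was -0.14 (SE 0.265, adjusted p = 0.754). Those responses differed by -1.54 (SE 0.378, adjusted p = 0.032), and -1.53 (adjusted p = 0.001) with the Xist pattern as a covariate. That call was lost on leaving out any 1 of 7 of the 12 primed and NKG2D libraries, with adjusted p of 0.0565 to 0.0954, the highest without NKG2D wild-type replicate 1 (-1.19). It was also lost in a fit of those 12 libraries alone (0.0741) and without NKG2D wild-type replicate 1, primed knock-out replicate 1 and primed wild-type replicate 3 together (0.0626).

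Serpinb9 passed between genotypes after NKG2D and not in fresh or primed cells. In primed cells it was at 565, 709 and 828 CPM in knock-out, against 706, 647 and 516 CPM in wild type, and after NKG2D at 113, 104 and 111 CPM in knock-out, against 432, 288 and 261 CPM in wild type. The primed groups overlapped, with a difference of 0.17 (SE 0.176, adjusted p = 0.552). The NKG2D groups did not, as for 34.8% of all genes, with -1.58 (SE 0.181, adjusted p = 2.24e-05). In fresh cells 368 to 439 CPM in knock-out and 287 to 370.2 CPM in wild type overlapped, with a difference of 0.22 (adjusted p = 0.641). Priming raised it in both genotypes, by 0.84 in knock-out (SE 0.177, adjusted p = 0.000872) and by 0.89 in wild type (SE 0.177, adjusted p = 0.000432), and the difference was -0.05 with a 95% interval of -0.58 to 0.47. NKG2D lowered it in both, with -2.68 in knock-out (SE 0.188, adjusted p = 1.36e-08) and -0.93 in wild type (SE 0.178, adjusted p = 0.00109), and these responses differed by -1.75 (SE 0.251, adjusted p = 0.000997).

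Serpinb6b was at 575, 656 and 729.7 CPM in primed knock-out libraries, against 1171, 1138 and 949.6 CPM in primed wild-type libraries. After NKG2D it was at 275, 272 and 240.3 CPM in knock-out, against 1015, 709 and 682 CPM in wild type. In fresh cells it was at 477, 434 and 464 CPM in knock-out, against 349, 406 and 402 CPM in wild type. The genotypes did not overlap in any condition, with knock-out above wild type in fresh cells and below it in cultured cells. Groups were apart for 27% of all genes when fresh, 31.6% when primed and 34.8% after NKG2D, and the fresh difference did not pass. The differences were 0.25 fresh (SE 0.139, adjusted p = 0.48), -0.73 when primed (SE 0.139, adjusted p = 0.00185) and -1.61 after NKG2D (SE 0.142, adjusted p = 2.23e-06).

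Serpinb6b rose at priming in both genotypes, by 0.51 in knock-out (SE 0.139, adjusted p = 0.00565) and by 1.49 in wild type (SE 0.141, adjusted p = 1.16e-07), and these responses differed by -0.98 (SE 0.196, adjusted p = 0.00507). NKG2D lowered it in both, with -1.32 in knock-out (SE 0.141, adjusted p = 1.60e-06) and -0.44 in wild type (SE 0.139, adjusted p = 0.0337), where the wild-type groups overlapped and leaving out single libraries gave adjusted p up to 0.162. The difference of these responses was -0.88 (SE 0.196, adjusted p = 0.0202). That call was lost without NKG2D wild-type replicate 1 (-0.67, adjusted p = 0.0508), without primed knock-out replicate 3 (-0.78, 0.0588), with the replicate block (-0.87, 0.0589) and in a fit of the primed and NKG2D libraries alone (-0.88, 0.0717). NKG2D wild-type replicate 1 was the highest of its group for Prf1 and all 3 serpins and the lowest for Gzmk.

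Lamp1 (chr8:13159161-13175338, plus strand) was the one gene of the 10 that did not pass in any comparison at the settings used throughout. It was at 26.9, 24.8 and 24.0 CPM in NKG2D-stimulated knock-out libraries, against 26.1, 27.9 and 38.9 CPM in NKG2D-stimulated wild-type libraries, with a difference of -0.30 (95% interval -0.67 to 0.08, adjusted p = 0.275). When primed, it was at 39.7, 23.8 and 26.7 CPM in knock-out, against 28.7, 33.2 and 27.7 CPM in wild type, with a difference of 0.01 (95% interval -0.36 to 0.38). The highest of the primed knock-out values was in replicate 1, the smallest library, and without it priming lowered Lamp1 in knock-out cells (-0.50, adjusted p = 0.018). In fresh cells the genotypes did not overlap, at 34.9 to 40.0 CPM in knock-out and 29.3 to 33.8 CPM in wild type. Fresh groups were apart for 27% of all genes, and the difference was 0.25 for Lamp1 (adjusted p = 0.592).

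Seen by condition, priming changed 5 of the 10 genes in knock-out cells, 3 up and 2 down. Of all genes, 48.7% were called there, 23.0% up and 25.7% down. In wild-type cells it changed 6, 4 up and 2 down, beside 53.7% of all genes, 26.5% up and 27.2% down. NKG2D stimulation changed 8 of the 10 in knock-out cells, 2 up and 6 down, beside 35.3% of all genes, 18.4% up and 16.9% down. In wild-type cells it changed 6, 2 up and 4 down, beside 19.9% of all genes, 9.20% up and 10.7% down. The priming response differed between genotypes for 4 genes, higher in knock-out for Gzmm and lower for Prf1, Serpinb6b and Srgn, beside 10.5% of all genes, 4.08% higher and 6.41% lower. The NKG2D response was lower in knock-out for 4 genes (Gzmm, Serpinb9, Serpinb9b and Serpinb6b), beside 3.55% of all genes, 1.49% higher and 2.07% lower. It was lower for 1 gene, Serpinb9, without NKG2D wild-type replicate 1, and for 2 without primed knock-out replicate 3. In these fits 242 and 365 of all genes were called in either direction. The genotype comparison in primed cells and both responses share the primed libraries, so these counts are not independent of each other.

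**Figure D3:**
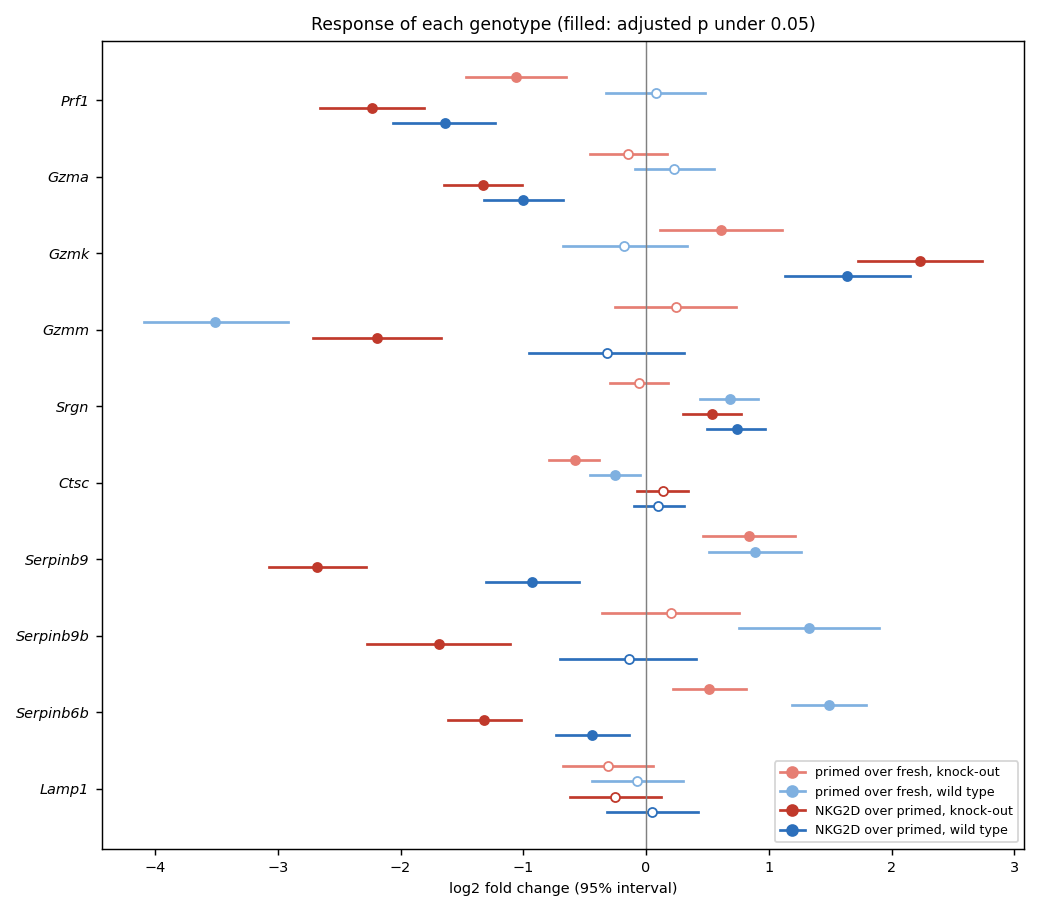
Log2 fold change of each gene at priming (primed over fresh, pale) and at NKG2D stimulation (NKG2D over primed, dark), in knock-out (red) and wild-type cells (blue), with 95% intervals. Filled points passed an adjusted p of 0.05. For Gzmm the wild-type priming point is at -3.51 and the knock-out NKG2D point at -2.19, and for Serpinb9 the knock-out NKG2D point is at -2.68 beside -0.93 in wild type.

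The granule genes of chromosome 14, which encode granzyme B and its relatives, were set beside the 10 genes. Of 8 tested, 2 were higher and 6 lower in primed knock-out than in primed wild-type cells, with a median of -3.11, and 1 was higher and 6 lower after NKG2D, with a median of -3.32. Of all genes, 15.5% were called between primed genotypes and 18.2% after NKG2D. Gzmb, granzyme B, was at 565 ± 102 CPM in knock-out and 4406 ± 1429.6 CPM in wild type after NKG2D (log2 fold change -2.96, adjusted p = 6.62e-07), beside -1.58 for the gene of its inhibitor, Serpinb9. Cma1, a chymase gene, was higher by 3.67 in primed and 2.70 in NKG2D-stimulated knock-out cells, the same direction as Gzmm on chromosome 10. Chymases are also mast-cell genes, and the sum of 10 mast-cell and basophil markers was 96.6 to 101 CPM in primed knock-out and 163 to 184 CPM in primed wild-type cells, and 263 to 344 CPM in NKG2D-stimulated knock-out and 290.1 to 459 CPM in NKG2D-stimulated wild-type cells. Most of that sum was Kit, at 85.0 ± 5.28 CPM in primed knock-out and 171 ± 10.8 CPM in primed wild-type cells. Of 3 tested markers, Mcpt8 was higher and Kit lower in primed knock-out cells, and 0 passed after NKG2D. Fcer1a, Ms4a2, Tpsb2, Mcpt4 and Prss34, which are among the other 7, were at 0 in every group. The part of such cells in the chromosome 14 values was not tested.

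Cathepsins other than Ctsc, and the cystatins that inhibit cathepsins, were called in both directions. Of 12 cathepsin and cystatin genes, 3 were higher and 3 lower in primed knock-out cells, and 0 were higher and 3 lower after NKG2D. These counts stand beside 15.5% of all genes called when primed and 18.2% after NKG2D. Cst7, cystatin F, an inhibitor of cathepsin C in lysosomes and granules, had a log2 fold change of -1.18 after NKG2D (SE 0.147, adjusted p = 4.75e-05), at 117 ± 18.5 CPM in knock-out and 265 ± 18.8 CPM in wild type. Ctsl, cathepsin L, a lysosomal endopeptidase, was higher by 2.43 in primed knock-out cells (adjusted p = 6.72e-05), at 6.94 ± 1.43 CPM in knock-out and 1.32 ± 0.589 CPM in wild type.

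Among 25 genes of granule movement and exocytosis, 6 were lower and 0 higher in primed knock-out cells, among them Sytl1 (-2.62, adjusted p = 0.00205), a Rab27 effector, and Vamp8 (-0.67, adjusted p = 0.00245), a vesicle SNARE. After NKG2D 1 was lower, Sytl3 (-1.22, adjusted p = 1.67e-05), and 1 higher, Vamp4 (0.67, adjusted p = 0.00781). Of 18 genes of lysosome membranes and sorting, 2 were higher and 3 lower in primed knock-out cells, and 1 was higher and 3 lower after NKG2D. Cd63, a granule and endosome tetraspanin, was lower in both, at -2.32 in primed (adjusted p = 6.72e-05) and -2.42 in NKG2D-stimulated cells (adjusted p = 2.52e-05), where Lamp1 did not pass. The medians of these lists lay between -0.06 and 0.02, beside -0.02 and 0.03 over all genes. The share of all genes called was 15.5% when primed and 18.2% after NKG2D.

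Of 5 other tested serpins, 1 was lower in primed knock-out cells and 4 were lower after NKG2D, with 0 higher. For this list and the 2 that follow, 15.5% of all genes were called when primed and 18.2% after NKG2D. Serpinb6a, a relative of Serpinb6b, was at 38.6 ± 1.51 CPM in knock-out and 91.8 ± 7.55 CPM in wild type after NKG2D (-1.25, adjusted p = 2.23e-06), and Serpinb1b, a neighbour of Serpinb9 and Serpinb9b, was also lower (-1.51, adjusted p = 0.000405). Of 17 genes that build the sugar chains of serglycin, 1 was higher and 3 lower in primed knock-out cells, and 1 was higher and 1 lower after NKG2D. Of 6 other cytolytic and death genes, 1 was higher and 1 lower in primed cells, and 1 was higher and 2 lower after NKG2D, with Fasl, the ligand of a death receptor, at -0.46 (adjusted p = 0.00452).

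Of 18 transcription factors known to act on cytotoxic genes, 3 were higher and 3 lower in primed knock-out cells, and 4 were higher and 3 lower after NKG2D. Among all genes 15.5% were called when primed and 18.2% after NKG2D. Klf2, a factor of quiescent and circulating lymphocytes, was at 34.1 ± 6.95 CPM in knock-out and 2.69 ± 0.274 CPM in wild type when primed (3.67, adjusted p = 7.58e-09), and higher by 3.51 after NKG2D (adjusted p = 1.37e-07). Nfil3, needed for NK-cell development, was lower when primed (-0.93, adjusted p = 0.000238). Irf4, a factor of activated lymphocytes, was lower after NKG2D (-2.17, adjusted p = 0.00234). In fresh cells 0 genes of these 8 lists passed in either direction, where 0.0673% of all genes did.

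**Figure D4:**
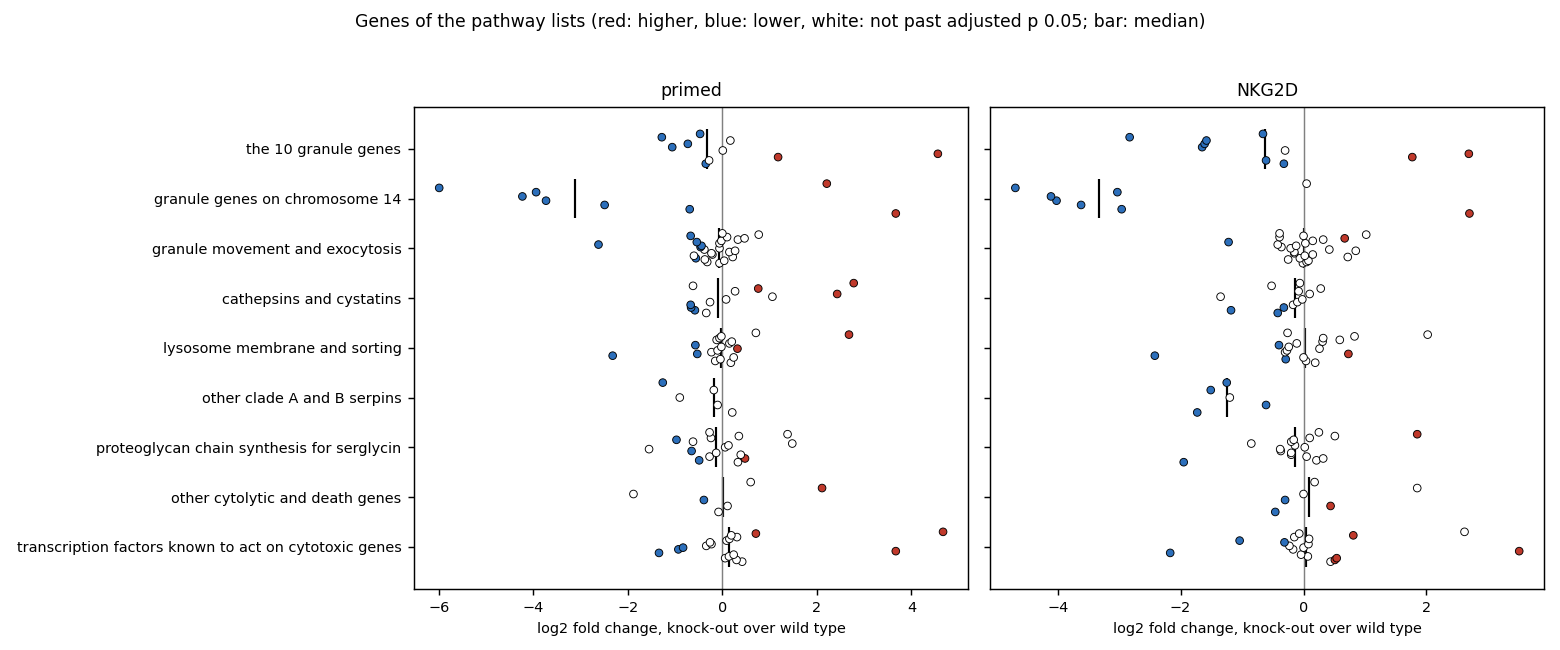
Log2 fold change in knock-out over wild-type cells of each tested gene in the lists of the granule pathway, in primed (left) and NKG2D-stimulated cells (right). Red and blue points passed an adjusted p of 0.05 as higher and lower, white points did not, and bars are medians. The chromosome 14 list has medians of -3.11 and -3.32, the 10 granule genes -0.32 and -0.64, and the movement, cathepsin and lysosome lists lie between -0.14 and 0.02.

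Neighbouring genes were set beside the members because the serpins lie together. Between genotypes 0.0673% of all genes passed when fresh, 15.5% when primed and 18.2% after NKG2D. Within 100 kb of the start of Gzmm, 7 other genes were tested, and 0 of them passed between genotypes in any condition. For Serpinb9 and Serpinb9b, 4 of 5 tested neighbours were lower in knock-out after NKG2D, of which 2 are members themselves, 1 is Serpinb1b and 1 is Gm36099, which overlaps Serpinb9b on the opposite strand at no more than 1.27 CPM in any library. The sources used here do not give whether counting used strand, so reads of Gm36099 and Serpinb9b in the shared stretch cannot be told apart. Of 3 tested neighbours of Prf1, 1 was higher in primed knock-out cells, and 1 was higher and 1 lower after NKG2D. Adamts14, at 24.4 kb, was lower after NKG2D (-0.77, adjusted p = 0.00964), and the primed value was 0.48 (adjusted p = 0.0905). Pald1, at 85.7 kb, was higher by 1.14 in primed and 0.92 in NKG2D-stimulated knock-out cells.

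Some other genes had patterns over the 6 groups close to a member's, measured as the root mean square difference of centred mean log2 CPM among 11838 genes. The nearest to Prf1, whose own means spanned 3.31, were Cd300lf (0.28), Phf11a (0.31) and Ciart (0.35), with the activation marker Cd69 (0.36) and the chemokine gene Ccl4 (0.40) next. Nearest to Gzma was Slamf7 (0.03), an NK-cell receptor gene, with Hmga1 at 0.08. Nothing came as near to Gzmm, whose means spanned 4.82: the first was Gpr137b at 0.74. The nearest to Serpinb9b were C1ra (0.24) and Slc6a13 (0.33), and the cytokine gene Csf2 was at 0.42.

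In the authors' deposited table of comparisons, each over 13578 genes, the directions were the same for the called genes. The authors' deposited table has 7 of the 10 under an adjusted p of 0.05 in primed cells, 2 higher and 5 lower, and 9 after NKG2D, 2 higher and 7 lower. For fresh cells the authors' deposited table has 2, Gzmm at 0.83 (adjusted p = 0.00231) and Srgn at 0.29 (adjusted p = 0.0157), both higher in knock-out. How many of all 13578 genes were under that threshold was not counted, so these counts have no share of all genes beside them. The shares given for the edgeR fit do not apply to them.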

How the data were processed

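RNA from 18 libraries of sorted mouse NK cells was prepared with the Takara-Clontech SMARTer kit, per the labels' protocols. The authors deposited 1 table of expected counts per gene for all libraries (30% of values above 0 were not whole), and the submitters' processing notes name bcl2fastq, DRAGEN, edgeR and the build mm10, without versions. Library totals of 14772350 to 34367582 reads set the precision of the values. The authors' deposited table of comparisons holds log2 fold changes and adjusted p-values, which were printed only where named, and per the file headers a t statistic, log odds and signed fold that are scores not used here. The sources used here do not give the annotation or the strand setting of the counting.

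Expected counts were rounded to whole numbers. Of 55774 entries, 14864 genes passed filterByExpr (minimum count 10). A model with 1 mean per group was fitted in edgeR 4.0.16 under R 4.3.3 with TMM scaling (common biological coefficient of variation 0.234), tested by quasi-likelihood, and adjusted by Benjamini-Hochberg over all genes tested, with a threshold of 0.05. The test had been planned for whole counts. Levels are CPM on TMM-scaled library sizes, and differences between genotypes in a response are interaction terms. Every log2 fold change not credited to the deposited table, with its SE and adjusted p, is from that fit unless another setting is named. The fit was also run on counts simulated from its own mean levels and spread. The outcome is not reported here, and such counts cannot show how well the model fits the real libraries. The genes and lists were chosen with earlier results of these data known. The text names all 10 genes, Acly, and, of each list and genotype comparison, up to 2 risen and 2 fallen genes of smallest p, plus nearest patterns and neighbours within 100 kb. Fcer1a and the other markers at 0, Gm36099 and Pald1 are named as neighbours or markers.

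Alternatives were DESeq2 1.42.0, limma 3.58.1 with voom and quality weights, DESeq2's size-factor method (RLE) and library totals for scaling, no filter and a stricter filter (minimum count 50), a minimum fold of 2, a fit of each comparison's own libraries, the replicate number as a block, and each library left out. The block was the number across genotypes for genotype comparisons, and the number within genotype for responses and their differences. Further alternatives were chosen after seeing the data: leaving out primed knock-out replicate 1 (the smallest library) and primed wild-type replicate 3 (the lowest of its group for all 10 genes), leaving out these and NKG2D wild-type replicate 1 (the highest of its group for Prf1 and the 3 serpins), and adding the Xist pattern as a covariate. Gene positions are from GENCODE M21 (GRCm38, the build mm10), and promoter windows from RefSeq (GRCm38.p6). A comparison of protein sequences was not made here.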

Additional observations from a re-analysis of the deposited data

Results flagged for a closer look

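The response to priming with IL-15 differed between genotypes, by an interaction term of edgeR's quasi-likelihood test adjusted over all genes, for 4 of the 10 genes. In knock-out minus wild-type cells the differences of log2 fold changes were 3.75 for Gzmm (adjusted p = 1.31e-05), -1.14 for Prf1 (0.0131), -0.98 for Serpinb6b (0.00507) and -0.73 for Srgn (0.00739).

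The response to NKG2D differed for 4 of the 10 genes, with differences of -1.87 for Gzmm (adjusted p = 0.0126), -1.75 for Serpinb9 (0.000997), -1.54 for Serpinb9b (0.032) and -0.88 for Serpinb6b (0.0202). The Gzmm call was lost without NKG2D wild-type replicate 1 (-1.71, adjusted p = 0.0586) and no other single library, and without that library, primed knock-out replicate 1 and primed wild-type replicate 3 together (-1.42, 0.131). The Serpinb9b call was lost without any 1 of 7 of the 12 libraries compared (adjusted p of 0.0565 to 0.0954) and in a fit of those libraries alone (0.0741). The Serpinb6b call was lost without NKG2D wild-type replicate 1 (-0.67, 0.0508) or primed knock-out replicate 3 (-0.78, 0.0588), with the replicate block (0.0589) and in a fit of those libraries alone (0.0717). For Gzmm, the wild-type cells were already near 1 CPM when primed, so its NKG2D difference rests on a fall in knock-out cells. Groups of 3 were given no formal outlier test.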

How the results depend on the processing

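Counts of the 10 genes called moved by over 1.5 times, or away from 0, in few settings. In fresh cells 2 genes were called by limma with voom, 1 without a filter and 1 in a fit of the fresh libraries alone, against 0. Asking for at least a 2-fold change left 4 in primed knock-out against wild type, 1 and 3 for priming in knock-out and wild type, 3 for NKG2D in wild type and 2 for the priming difference, for which voom called 7. Of all 14864 genes, the 2-fold rule left 841, 3829, 4509, 1097 and 718 in these comparisons, in the same order. Voom called 4157 of all genes for the priming difference. The NKG2D difference had 2 calls in a fit of its own libraries, 2 without 3 libraries, and 1 to 4 with single libraries left out (2 without primed knock-out replicate 3). Over all genes it had 203, 252 and 242 to 598 calls in these settings. Over all genes, the fresh count of 10 was 137 by DESeq2, 1900 by voom, 564 without a filter and 780 with the fresh libraries alone. Of 1050 values of single genes under alternatives that keep every group whole or drop the doubted libraries, 977 kept direction and side of the threshold, 39 lost the call, 22 gained it and 12 changed sign. The 2-fold rule is part of this tally but reuses the main fit, so it could only keep or lose a call. None of the sign changes was of a called gene. They were Lamp1 by voom (-0.25 between primed genotypes, -0.06 for NKG2D in wild type, 0.01 for the NKG2D difference), Prf1 for priming in wild type (-0.06) and Serpinb9 for the priming difference (0.10) on library totals, and Ctsc for the NKG2D difference without a filter (-0.01). Without primed knock-out replicate 1 and wild-type replicate 3, Lamp1 was -0.28 between primed genotypes, 0.01 for priming and -0.02 for NKG2D in wild type, and Gzma 0.02 and Srgn 0.05 for priming in knock-out. Without these and NKG2D wild-type replicate 1, Lamp1 was -0.30 between primed genotypes. With single libraries left out, ranges spanned 0 for Prf1 (-0.08 to 0.16), Gzma (-0.04 to 0.16) and Ctsc (-0.12 to 0.05) between fresh genotypes, Lamp1 between primed genotypes (-0.22 to 0.14), Gzma (-0.28 to 0.02) and Srgn (-0.09 to 0.05) for priming in knock-out, Gzmk for priming in wild type (-0.33 to 0.03), Serpinb9b (-0.50 to 0.12) and Lamp1 (-0.16 to 0.16) for NKG2D in wild type, Serpinb9 for the priming difference (-0.18 to 0.12) and Ctsc for the NKG2D difference (-0.01 to 0.11). The cause of these moves was not tested. Correlations between libraries of the same replicate number were low (18 across conditions and 9 across genotypes, none over 0.1). Within each genotype, however, the Xist pattern kept to a single replicate number through every condition. Low correlations cannot show that such libraries have separate sources, and whether they share animals was not tested. With the replicate number as a block across genotypes, the counts were 0, 7 and 9 between fresh, primed and NKG2D genotypes. Over all genes they were 11, 2074 and 2435. That block matches libraries with the Xist pattern to libraries without it, so it cannot serve as a check of pairing. With the number within genotype as the block, the NKG2D difference had 3 calls, beside 250 over all genes. On library totals the median gene moved by 0.22 for NKG2D in knock-out, against 0.04 with TMM. Gzmm in wild-type culture rests on 20 to 49 reads per library.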

Other observations

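Serpinb9b was highest in the library with the Xist pattern in 6 of 6 groups, Srgn in 5, Gzma in 4 and Lamp1 in 0. Of all 14864 genes tested, 43 (0.289%) were highest there in 6 of 6 groups. This was looked at after the values were seen, and these libraries may differ from the others in more than Xist, so the cause was not tested. With the Xist pattern as a covariate, Serpinb9b's priming response differed between genotypes by -1.08 (edgeR adjusted p = 0.00513) and its NKG2D response by -1.53 (0.001). The priming difference was then called for 5 of the 10 genes and 1497 of all genes, against 4 and 1559 without the covariate. In the other comparisons the number called was as before.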
